A study of Homo sapiens with 3 samples.

Results

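The genes described here encode the folding machinery of the endoplasmic reticulum (ER), its quality control and the unfolded protein response, the signalling that adjusts that machinery to load. A list of 36 genes was followed on the arrays of cells labelled HCC1937, and 34 of them were named by at least 1 probe of the platform annotation, out of 20043 genes named there. HERPUD1 and KDELR2 were the other 2 and have no values. HCC1937 is an established human breast cancer line that the labels class as basal, and the medium of all cells was DMEM (glucose at 3 mM, glutamine at 0.5 mM). The 3 groups were untreated cells, cells given dexamethasone, a synthetic glucocorticoid, at 200 nM for 16 h, and cells given dexamethasone at 200 nM together with 1 µM retinoic acid for 16 h, here called the combination. Each group held 1 Illumina bead array of total RNA. No difference below therefore has a replicate check or a test. Precision is limited by the number of arrays, and the standard error (SE) given beside a difference covers only the spread between beads.

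Proteins that enter the secretory pathway fold in the ER with the help of the chaperone HSPA5 and its partners, lectin chaperones and disulfide isomerases. When unfolded proteins build up, 3 membrane sensors respond: IRE1 (encoded by ERN1) splices the XBP1 mRNA, ATF6 is cut to release a transcription factor, and PERK (EIF2AK3) slows translation and favours synthesis of ATF4. XBP1 and ATF6 then raise chaperones and the ER-associated degradation (ERAD) machinery, whereas ATF4 and its target DDIT3 raise PPP1R15A, which ends the PERK signal. Secretory breast epithelium is rich in XBP1, which is also a gene linked to estrogen receptor signalling.

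The ER stress element (ERSE), a promoter sequence bound by ATF6 together with the factor NF-Y, was searched as CCAAT, then 9 bases of any kind, then CCACG, on both strands. Its variant ERSE-II was searched as ATTGG, then 1 base, then CCACG. RefSeq promoter windows (GRCh38.p14, 250 bases before to 50 after an annotated start) were at hand for 31 of the 36 genes. An ERSE lay in the window of 8 of them (25.8%), against 25 of all 27305 genes in the table (0.0916%), and an ERSE-II in 3 (9.68%), against 19 of all (0.0696%). The genes were listed for their part in this response, so this share is a description. The elements of the measured genes discussed most below are printed 5′ to 3′ on the gene's strand, with the match in capitals and up to 10 flanking bases in lower case.
HSPA5, chr9:125241381-125241419, minus strand: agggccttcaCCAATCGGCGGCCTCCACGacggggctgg
HSP90B1, chr12:103930206-103930244, plus strand: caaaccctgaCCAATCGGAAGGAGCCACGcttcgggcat
HSP90B1, chr12:103930311-103930349, plus strand: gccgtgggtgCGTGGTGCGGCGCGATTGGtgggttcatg
CALR, chr19:12938374-12938412, plus strand: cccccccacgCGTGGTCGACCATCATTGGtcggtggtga
CRELD2, chr22:49918544-49918582, plus strand: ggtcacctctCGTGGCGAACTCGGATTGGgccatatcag
PDIA6, chr2:10812843-10812881, minus strand: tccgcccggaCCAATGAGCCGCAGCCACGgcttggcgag
XBP1, chr22:28800593-28800631, minus strand: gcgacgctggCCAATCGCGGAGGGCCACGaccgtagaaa
SDF2L1, chr22:21642104-21642134, plus strand: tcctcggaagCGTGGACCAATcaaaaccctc
HYOU1, chr11:119057370-119057400, minus strand: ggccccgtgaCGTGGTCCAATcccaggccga
HYOU1, chr11:119057264-119057294, minus strand: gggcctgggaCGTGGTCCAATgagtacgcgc

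The first 7 of these lines, HSPA5 to XBP1, show ERSE matches, and the last 3 show ERSE-II. Matches that begin with CGTGG read the element on the opposite strand. In XBP1 the match lay closest to the start among the printed genes, 34 to 52 bases before it, and in CALR farthest, 207 to 225 bases before it. The whole 250 bases before the HYOU1 start (chr11:119057206-119057455, minus strand) are shown because they hold both ERSE-II matches and the core of the UPR element, TGACGTGG, which shares 5 bases, CGTGG, with the ERSE-II beside it.
HYOU1: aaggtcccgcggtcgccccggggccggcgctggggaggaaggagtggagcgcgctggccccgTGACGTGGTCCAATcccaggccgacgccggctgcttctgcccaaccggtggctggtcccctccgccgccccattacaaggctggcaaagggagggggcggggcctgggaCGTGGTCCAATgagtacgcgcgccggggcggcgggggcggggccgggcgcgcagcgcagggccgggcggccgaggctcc

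The UPR element core was found in the windows of HYOU1 and KDELR3 (2 of 31, 6.45%) and in 0.927% of all genes. CCACG alone, which is part of ERSE and ERSE-II and, read on the other strand, of the UPR element core, was found in 24 of 31 (77.4%) and in 42.1% of all genes. The core of the amino acid response element that ATF4 binds, TGATGCAAT, and the glucocorticoid receptor's AGAACA site were found in 0 of the 31 windows, against 0.293% and 17.5% of all genes. No match says only that these letters are not in this window.

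**Figure D1:**
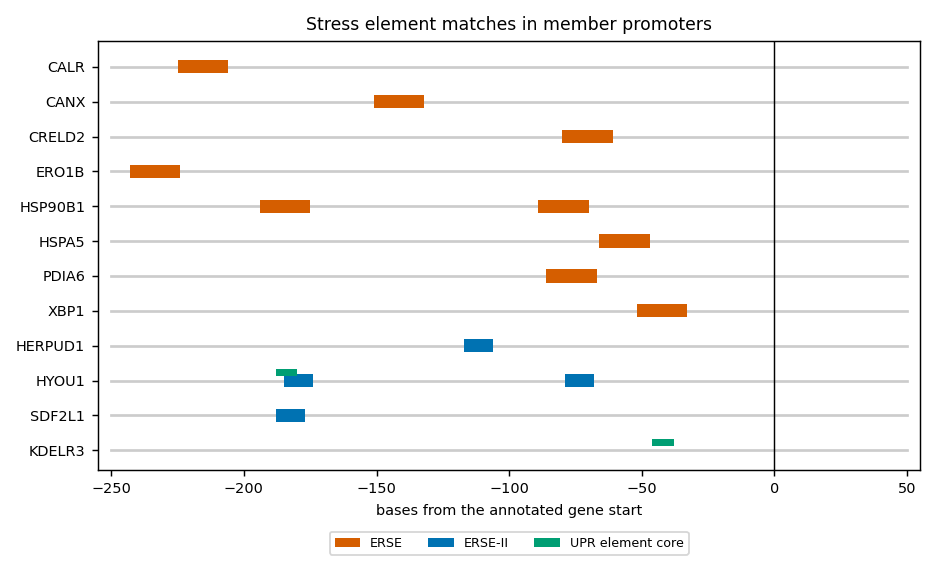
Positions of ERSE (orange), ERSE-II (blue) and UPR element core (green) matches in the promoter windows of the listed genes, drawn to scale in bases from the annotated start; for CANX, which has several annotated starts, 1 is drawn. CALR and ERO1B have their match farthest from the start, and XBP1 and KDELR3 lie closest to it.

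The number that opens each array's code was taken as its slide, which is an inference. By it the untreated and combination arrays lay on 1 slide and the dexamethasone array on another. A difference that involves the dexamethasone array therefore cannot be told apart from the slide. Unnormalized intensities had medians of 131.6 (untreated), 149.3 (dexamethasone) and 159.0 (combination), and the 75th percentiles were 196.2, 246.1 and 282.2. A probe with equal raw intensity on the untreated and combination arrays is therefore lower on the latter after normalization. Levels below are normalized log2 intensities of 1 representative probe per gene, and levels of different genes are not compared. Both treatments left their mark on the arrays: the glucocorticoid target SGK1 was 43.0-fold higher with dexamethasone and 33.7-fold higher with the combination than untreated, and the retinoic acid target CYP26A1 was detected on the combination array alone. Markers went against the labelled basal type in part, and the identity of the cells labelled HCC1937 was not checked. Of the 3 basal markers with a named probe EGFR was detected throughout, but KRT14 was undetected on all 3 arrays and KRT5 was detected on the dexamethasone array alone, whereas 6 of 6 luminal markers, ESR1, GATA3, FOXA1, KRT8, KRT18 and TFF1, were detected on every array. Of 8 markers of immune, fibroblast and endothelial cells, between 1 and 2 were detected on each array. In such bulk RNA, fewer cells with a transcript and less transcript per cell cannot be told apart.

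Of the 34 named genes, 29 were detected on all 3 arrays (detection p under 0.01) and SEL1L on both treated arrays only. ERN1, PDIA3, ERO1B and DERL3 were detected on no array. PDIA3 is a disulfide isomerase for glycoproteins, ERO1B reoxidizes the isomerases and DERL3 is a derlin of ERAD. Their raw intensities, between 109.5 and 151.8 for the representative probes, give no level for the arrays to be compared on. The 30 genes measured are those that passed this filter.

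The chaperone genes HSPA5, HYOU1, CALR and HSP90B1 stood lowest with the combination, whereas PPP1R15A stood highest with dexamethasone and SEC24D with the combination. Of the 29 genes detected throughout, 18 were lowest on the combination array, 12 of them in the order untreated, dexamethasone, combination from high to low. Another 7 were lowest on the untreated array and 4 on the dexamethasone array. The orders of all other genes were not counted, so these counts describe the listed genes and have no background share. The spans of many were small, and an order with a gap near the bead SE is no order of the cells. The comparisons with the untreated array share that array, and each comparison is given by its own values.

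**Figure D2:**
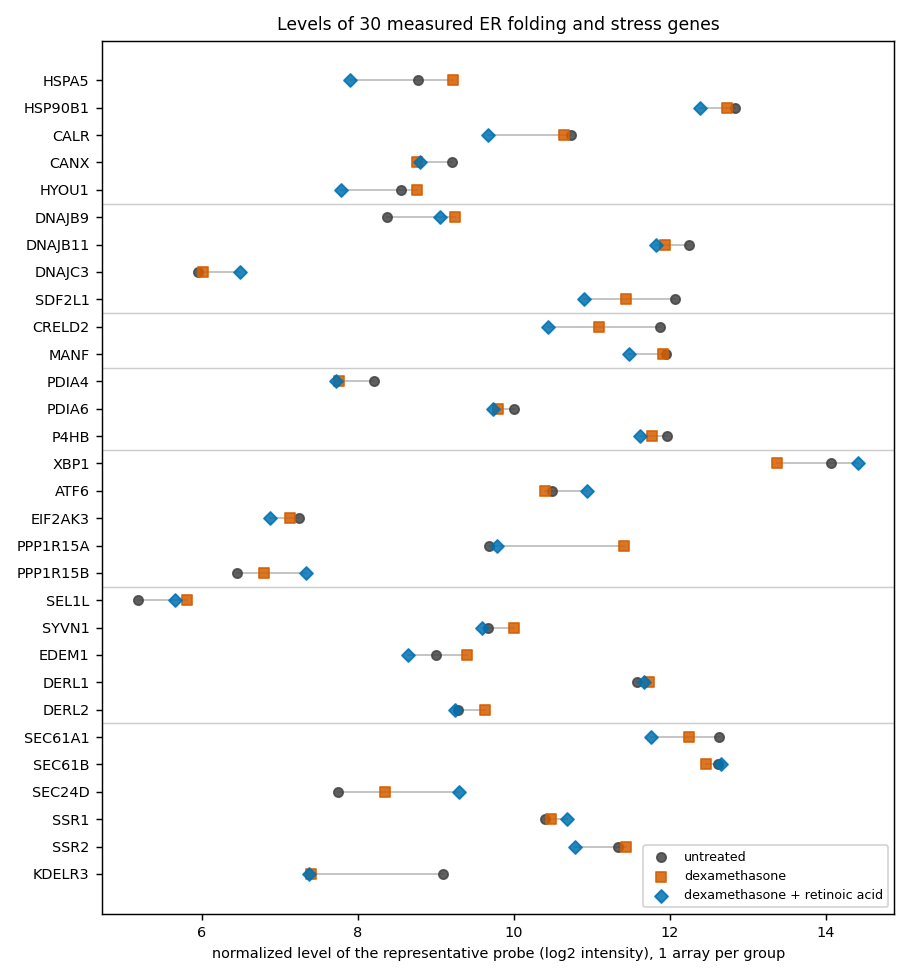
Normalized log2 intensity (horizontal axis) of the representative probe of each of the 30 measured genes on the untreated (grey circles), dexamethasone (orange squares) and combination (blue diamonds) arrays, grouped by role with grey lines between roles. HSPA5, CALR, SDF2L1, HYOU1 and CRELD2 are lowest on the combination array, PPP1R15A is highest on the dexamethasone array, and KDELR3 is highest on the untreated array.

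Chaperones of the HSP70 and lectin systems were lower with the combination. HSPA5, the ER HSP70 also known as BiP, had levels of 8.78 untreated, 9.22 with dexamethasone and 7.90 with the combination. The dexamethasone array was the highest and the combination array the lowest. HSPA5 was thus 1.83-fold lower with the combination than untreated (log2 difference -0.87, bead SE 0.11) and 2.50-fold lower than with dexamethasone (-1.32, bead SE 0.10), and 1.36-fold higher with dexamethasone than untreated (0.45, bead SE 0.08). Its raw intensities were 418.6, 708.7 and 437.4, close together for untreated and combination before normalization. Over the main processing and 8 alternatives the difference from untreated ranged from -0.87 to -0.62.

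HYOU1, the nucleotide exchange factor of HSPA5, had levels of 8.55, 8.76 and 7.78 in the same order of arrays. It was 1.71-fold lower with the combination than untreated (-0.77, bead SE 0.11), and its other probe gave -0.86. HYOU1 and HSPA5 shared an order, with the combination lowest and dexamethasone highest, but the other HYOU1 probe was 1.12-fold lower with dexamethasone than untreated where the representative probe was 1.15-fold higher. CALR, the soluble lectin chaperone calreticulin, had levels of 10.73, 10.64 and 9.66. The untreated and dexamethasone arrays nearly coincided (-0.09, bead SE 0.06), and CALR was 2.09-fold lower with the combination than untreated (-1.06, bead SE 0.07), a difference of -0.96 without background correction. Its membrane-bound relative CANX had levels of 9.21, 8.75 and 8.79, so both treated arrays lay below the untreated one by less than 1.5-fold. Its other probe was 1.48-fold lower with dexamethasone and 1.68-fold lower with the combination than untreated. HSP90B1, the ER member of the HSP90 family, had levels of 12.83, 12.74 and 12.38. It was 1.36-fold lower with the combination than untreated (-0.44, bead SE 0.05).

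The cochaperones went in different directions. SDF2L1, a partner of the ER J-domain proteins, had levels of 12.07, 11.43 and 10.90. It was lowest with the combination, 2.24-fold lower than untreated (-1.17, bead SE 0.05), and intermediate with dexamethasone, 1.55-fold lower (-0.63, bead SE 0.04). DNAJB11, the J-domain protein that brings unfolded chains to HSPA5, had levels of 12.24, 11.94 and 11.82, all within 1.5-fold. DNAJB9, a J-domain protein that restrains IRE1 and is itself a target of XBP1, had levels of 8.38, 9.25 and 9.05. Unlike SDF2L1 it was higher on both treated arrays, 1.83-fold with dexamethasone (0.87, bead SE 0.12) and 1.60-fold with the combination (0.68, bead SE 0.09). DNAJC3, a further ER J-domain protein, had levels of 5.96, 6.02 and 6.49, and its difference from untreated with the combination was 0.53 (bead SE 0.20).

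Of the secreted ER stress proteins, CRELD2 had levels of 11.88, 11.09 and 10.44. CRELD2, which is rich in EGF-like repeats and is released from stressed cells, was 2.71-fold lower with the combination than untreated (-1.44, bead SE 0.07) and 1.73-fold lower with dexamethasone (-0.79, bead SE 0.07). Its raw intensities of 2998.6, 2217.6 and 1937.4 were also in that order. MANF, a protein that binds HSPA5 and is secreted under stress, had levels of 11.95, 11.91 and 11.48, within 1.5-fold. The disulfide isomerases were close together on all 3 arrays. PDIA4 had levels of 8.20, 7.76 and 7.72 and P4HB, also a subunit of collagen prolyl hydroxylase, 11.96, 11.77 and 11.61. PDIA6 had raw intensities of 851.9, 985.8 and 1246.7, and after normalization its log2 differences from untreated were -0.21 and -0.27. All 3 were lower than untreated on both treated arrays, with log2 differences between -0.49 and -0.19.

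**Figure D3:**
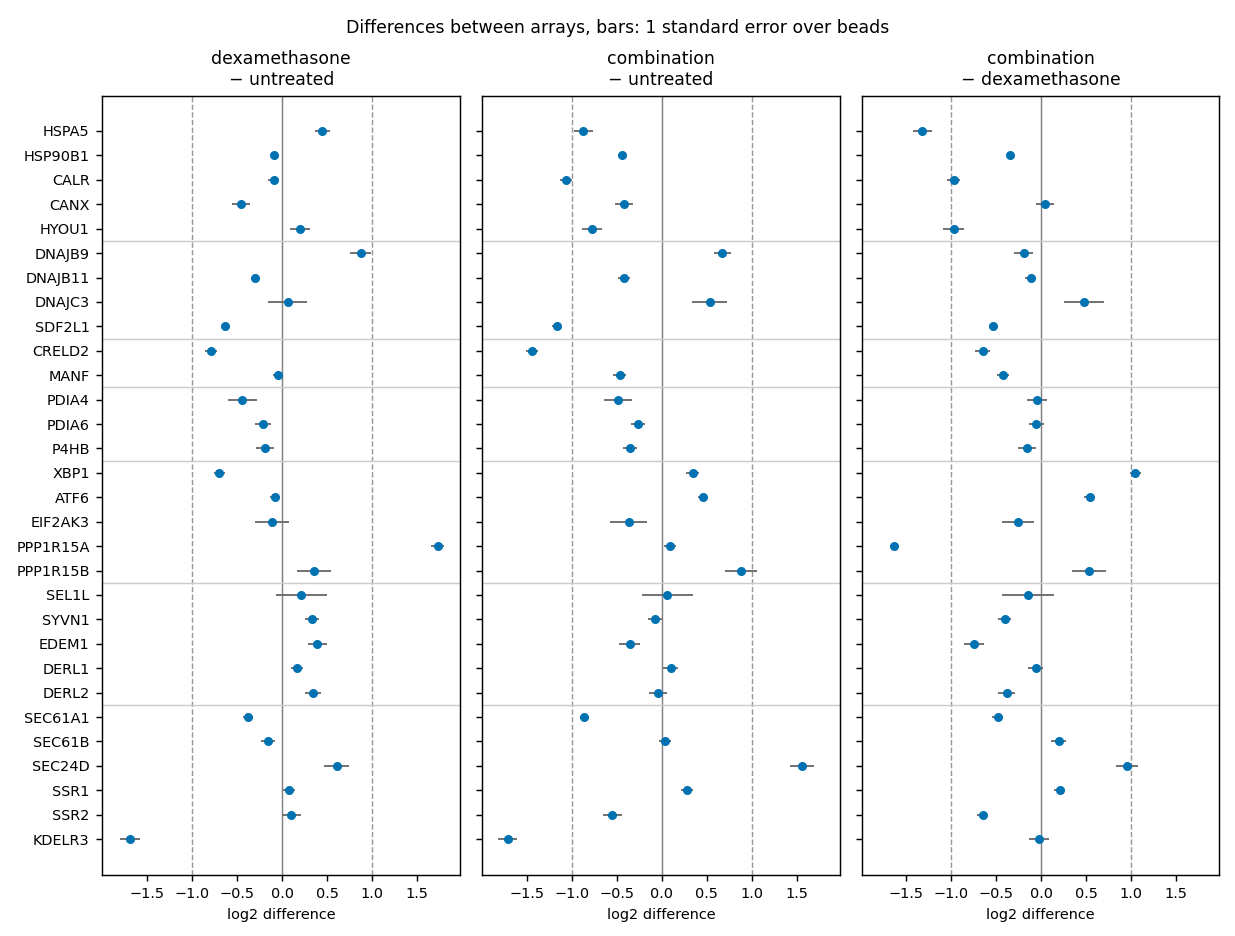
Log2 differences of the 30 measured genes for dexamethasone against untreated (left), the combination against untreated (middle) and the combination against dexamethasone (right); bars are 1 standard error over beads and dashed lines mark a 2-fold difference. PPP1R15A (1.73) and KDELR3 (-1.68) stand out on the left, SEC24D (1.56), KDELR3 (-1.71), CRELD2 (-1.44), SDF2L1 (-1.17) and CALR (-1.06) in the middle, and PPP1R15A (-1.63), HSPA5 (-1.32) and XBP1 (1.04) on the right.

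Among the sensors and effectors, XBP1 and PPP1R15A differed most between the treated arrays, in opposite directions. XBP1, the transcription factor whose mRNA is spliced by IRE1, had levels of 14.07 untreated, 13.37 with dexamethasone and 14.41 with the combination. The dexamethasone array was the lowest, 1.62-fold below the untreated one (-0.70, bead SE 0.06). XBP1 was 2.06-fold higher with the combination than with dexamethasone (1.04, bead SE 0.06). Its other probe, assigned to a different XBP1 transcript, was 1.69-fold lower with dexamethasone than untreated and 1.82-fold higher with the combination than with dexamethasone. Whether either probe separates spliced from unspliced mRNA was not tested. The raw intensities of the representative probe were 15856.1, 10942.1 and 22121.2, near the array maximum of 24859.4 in the last case. Against untreated cells the combination value was 0.35 higher with quantile normalization but -0.28 and -0.34 with the arrays scaled to a 75th percentile, over all probes and over detected probes, so its direction is not settled. The luminal markers differed alongside XBP1 on the dexamethasone array. Of 6, 4 were at least 2-fold lower than untreated with dexamethasone (4.57% of all genes) and 3 with the combination (5.43% of all genes). In both comparisons 0 were at least 2-fold higher (5.73% and 5.84% of all genes), and KRT8 was 1.32-fold higher with dexamethasone. Between the treated arrays the list median was 0.33, higher with the combination. ESR1, GATA3, FOXA1 and KRT18 were higher there and KRT8 and TFF1 lower. The part of these markers in the XBP1 value was not tested.

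ATF6, the sensor cut in the Golgi, had levels of 10.48, 10.40 and 10.94. It was 1.37-fold higher with the combination than untreated (0.46, bead SE 0.05). EIF2AK3, the sensor kinase PERK, had levels of 7.25, 7.14 and 6.88, with differences of less than 1.5-fold and bead SEs of 0.17 to 0.20. PPP1R15A, the stress-induced subunit that directs a phosphatase to eIF2 alpha, had levels of 9.69, 11.41 and 9.78. Only the dexamethasone array stood apart, 3.31-fold above the untreated one (1.73, bead SE 0.07), and the combination array was 3.10-fold below it (-1.63, bead SE 0.04) and within 1.07-fold of untreated. Its raw intensities were 690.8, 2765.3 and 1280.9. PPP1R15B, the constitutive counterpart, was highest with the combination instead, with levels of 6.45, 6.80 and 7.33. It was 1.84-fold higher with the combination than untreated (0.88, bead SE 0.18), and 2.05-fold on its other probe.

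The ERAD genes differed little. SYVN1, the ubiquitin ligase HRD1, had levels of 9.67, 10.01 and 9.60, and DERL2, a derlin, 9.28, 9.63 and 9.24. Both were highest with dexamethasone, by less than 1.5-fold on the representative probes. A dimmer SYVN1 probe, detected on the dexamethasone array alone, was at least 1.84-fold higher there than untreated and at least 1.80-fold higher than with the combination. That probe counts as measured only through the dexamethasone array, so its direction was set by the detection filter. EDEM1, which extracts misfolded glycoproteins from the folding cycle, had raw intensities of 470.4, 778.9 and 654.5 and was 1.68-fold lower with the combination than with dexamethasone (-0.75, bead SE 0.11). DERL1 had levels of 11.57, 11.74 and 11.67. SEL1L, the adaptor of SYVN1, was undetected untreated and at 5.81 and 5.66 on the treated arrays, at least 1.16-fold and at least 1.04-fold higher. The 4 ERAD genes detected on all arrays were higher with dexamethasone than untreated, by 0.16 to 0.39 on the log2 scale for the representative probes. SEL1L counts as measured only through the treated arrays, so its direction was set by the detection filter.

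Translocation and traffic held the largest differences from untreated cells with the combination in either direction. KDELR3, a receptor that returns escaped ER proteins from the Golgi, had levels of 9.09 untreated, 7.41 with dexamethasone and 7.38 with the combination. The treated arrays were alike (-0.03, bead SE 0.11) and both lay far below the untreated one. KDELR3 was 3.21-fold lower with dexamethasone (-1.68, bead SE 0.11) and 3.27-fold lower with the combination (-1.71, bead SE 0.10). Of its other probes, 1 gave 3.86-fold and 3.92-fold, and the dimmest gave at least 2.78-fold and at least 2.65-fold, since it was undetected on the treated arrays. The direction of the dimmest probe was thereby set by the detection filter. Without background correction the differences were -1.20 and -1.22. The related receptor KDELR1 differed by 0.05 and -0.02.

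SEC24D, a subunit that selects cargo for vesicles leaving the ER, had levels of 7.74, 8.35 and 9.30. It was lowest untreated and highest with the combination, 2.95-fold above untreated (1.56, bead SE 0.13) and 1.94-fold above dexamethasone (0.95, bead SE 0.12). SEC61A1, the channel subunit of the translocon, ran the other way, with levels of 12.62, 12.24 and 11.76. It was 1.82-fold lower with the combination than untreated (-0.87, bead SE 0.05), whereas the small subunit SEC61B, at 12.62, 12.46 and 12.65, stayed within 1.14-fold. The subunits of the translocon-associated protein complex also parted: SSR1 had levels of 10.40, 10.48 and 10.68, and SSR2 of 11.33, 11.43 and 10.78. For SSR2 the probes disagreed, since a dimmer probe was 1.82-fold lower with dexamethasone than untreated where the representative probe was 1.08-fold higher, and 2.81-fold lower with the combination where the representative probe was 1.46-fold lower.

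With dexamethasone against untreated, 1 of the 30 measured genes was at least 2-fold higher, PPP1R15A, and 1 at least 2-fold lower, KDELR3. Among all 10852 genes measured in that comparison, 5.73% were higher by that measure and 4.57% were lower, so the counts are near the background. At 1.5-fold, 3 were higher (13.4% of all) and 4 lower (13.7% of all). The median over the 30 was -0.06, against 0.00 over all genes. For 7 of 9 additional probes the sign was that of the representative probe. The detection filter fixed the direction of the dimmer SYVN1 probe and of the dimmest KDELR3 probe.

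With the combination against untreated, the pair taken to share a slide, 1 of 30 was at least 2-fold higher, SEC24D (5.84% of all 10705 genes measured). At least 2-fold lower were 4, KDELR3, CRELD2, SDF2L1 and CALR (5.43% of all). At 1.5-fold, 3 were higher (15.5% of all) and 7 lower (16.1% of all), the additional lower ones being HSPA5, SEC61A1 and HYOU1. The median over the 30 genes was -0.35, against -0.01 over all genes, and 19 of 30 lay below 0, against 5410 of all 10705. All 8 additional probes had the sign of the representative probe. The dimmest KDELR3 probe was measured there only through the untreated array, which fixed its direction. All 5 chaperones lay below 0 (median -0.77). The count at least 2-fold lower was 3 without background correction, with scaling to the 75th percentile and with the deposited values, where CALR was -0.96, -0.97 and -0.97.

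With the combination against dexamethasone, 1 of 30 was at least 2-fold higher, XBP1 (2.99% of all 10734 genes measured), and 2 were at least 2-fold lower, PPP1R15A and HSPA5 (3.58% of all). At 1.5-fold, 2 were higher (10.5% of all) and 7 lower (11.5% of all). The median was -0.18, against -0.01 over all genes. With arrays scaled to the 75th percentile of detected probes the median over all genes was -0.10, and 240 genes were at least 2-fold higher and 528 lower in place of 321 and 384. The median of the listed genes was then -0.30. With scaling to the 75th percentile of all probes the shift went the other way, to a median over all genes of 0.03 with 392 higher and 355 lower, and the listed genes had a median of -0.15. XBP1 was under 2-fold with both scalings (0.60 and 0.75), and with the latter SEC24D passed it (1.08).

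The genes were next divided by the promoter elements described above, a property of sequence and not of the arrays. Of the 11 genes with an ERSE or ERSE-II match, 9 were measured: HSPA5, HSP90B1, CALR, CANX, HYOU1, SDF2L1, CRELD2, PDIA6 and XBP1. Among these the CANX match, an ERSE, was not printed. Between the combination and untreated cells, 8 of these 9 lay below 0 (5410 of all 10705 genes) and 3 were at least 2-fold lower (5.43% of all genes). The other was XBP1, whose direction is not settled, as it was below 0 with the arrays scaled to a 75th percentile. The median of the 9 was -0.77, against -0.04 for the other 21 measured genes and -0.01 for all genes. All 5 chaperones, HSPA5, HSP90B1, CALR, CANX and HYOU1, are among these 9, and both medians of -0.77 are the HYOU1 value. For the chaperones, element and role therefore cannot be told apart. Of those 21, DERL1 and SEC24D had no promoter window to search, and the median of the remaining 19 was -0.07. With dexamethasone against untreated the median was -0.21 for the 9 and 0.08 for the other 21, and with the combination against dexamethasone -0.53 and -0.15. The difference was smaller with other processing, since the median of the 9 with the combination against untreated was -0.55 without background correction and -0.53 with the deposited normalized values.

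**Figure D4:**
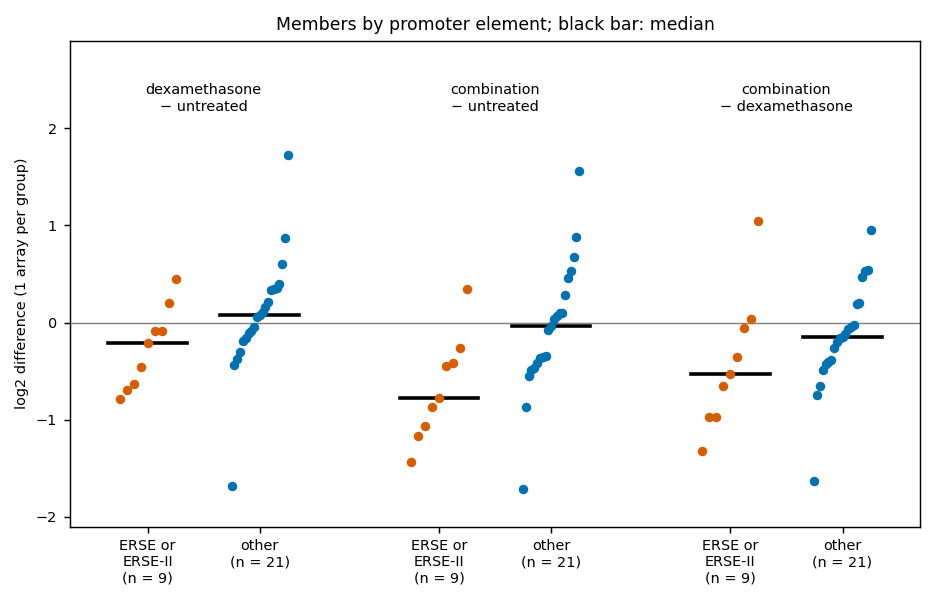
Log2 differences of the 9 measured genes with an ERSE or ERSE-II promoter match (orange) and of the other 21 (blue) in the 3 comparisons; each point is a gene and the black bar the median. With the combination against untreated the orange median is -0.77 and the blue one -0.04, and the highest orange point is XBP1 (0.35), which was below 0 with the arrays scaled to a 75th percentile.

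Genes outside the list whose promoter window held either element were taken from the table in the same way, and 17 were measured. Between the combination and untreated cells 1 of them was at least 2-fold higher, NAV2 (3.17), and 1 lower, RAD9A (-1.07), against 5.84% and 5.43% of all genes. The median of the 17 was -0.22, and 6 were at least 1.5-fold lower (16.1% of all genes). Between the treated arrays their median was -0.06. With dexamethasone against untreated it was 0.11, with 9 of 17 above 0, against 5395 of all 10852 genes. They included FICD, an enzyme that modifies HSPA5 (-0.84 with the combination against untreated), NUCB1 (-0.23) and SERP1, a translocon-associated protein (0.40). These names were chosen after the values were seen.

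The PERK branch was also followed through a list of 20 genes of the ATF4 response, of which 19 were named. With dexamethasone against untreated 19 were measured, and 5 were at least 2-fold higher and 0 lower (5.73% and 4.57% of all genes). ATF3, CHAC1 and SESN2 were measured there only through the dexamethasone array, which fixed their direction. SLC7A11 was measured there only through the untreated array, which fixed its direction too. At 1.5-fold, 6 were higher and 2 lower (13.4% and 13.7% of all genes). The additional higher one was PSAT1 (1.61-fold, bead SE 0.06). SLC3A2, an amino acid transporter subunit, and XPOT, a tRNA exporter, were 1.52-fold and 1.89-fold lower. The transcription factor DDIT3 had levels of 6.81 untreated, 9.31 with dexamethasone and 6.59 with the combination, and was 5.66-fold higher with dexamethasone than untreated (2.50, bead SE 0.13). The stress-induced regulator NUPR1 had levels of 6.34, 8.51 and 6.96, and the transcription factor ATF3, undetected untreated, 8.36 and 6.34 on the treated arrays. DDIT3, ATF3 and NUPR1 thus stood highest on the dexamethasone array, as PPP1R15A did. DDIT4, an inhibitor of mTOR signalling that glucocorticoids also induce, was high on both treated arrays, at 11.43, 13.83 and 13.53.

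ATF4 itself, which is regulated mainly by translation, had levels of 12.91, 13.12 and 13.16. Its metabolic target ASNS was not at least 1.5-fold different in any comparison, and the pseudokinase gene TRIB3, at 11.27, 11.01 and 10.22, was 2.06-fold lower with the combination than untreated (-1.05, bead SE 0.07). Between the combination and untreated cells 17 genes of the list were measured, 2 were at least 2-fold higher, DDIT4 and VLDLR, and 1 lower, TRIB3 (5.84% and 5.43% of all genes). Between the treated arrays 19 were measured, and with the combination 1 was at least 2-fold higher, VLDLR, and 3 lower, DDIT3 (6.60-fold), ATF3 (4.07-fold) and NUPR1 (2.93-fold). Of all genes 2.99% were higher and 3.58% lower by that measure. CHAC1 and SESN2 were measured between the treated arrays only through the dexamethasone array, and SLC7A11 only through the combination array, which fixed their direction. On the dexamethasone array a cytosolic heat shock gene also stood out. HSPA6, which probes may not separate from its near copy HSPA7, had raw intensities of 137.0, 3581.3 and 192.5, and was at least 74.5-fold higher with dexamethasone than untreated. It belongs to 5 heat shock genes listed after the data were seen. Of the others, DNAJB1 was 2.32-fold higher with dexamethasone and 1.96-fold higher with the combination than untreated. With dexamethasone HSPA1B and HSPH1 were 1.39-fold and 1.33-fold higher and HSPA1A 1.62-fold lower. The part of HSPA6 in the PPP1R15A and DDIT3 values was not tested, and neither was that of the slide.

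**Figure D5:**
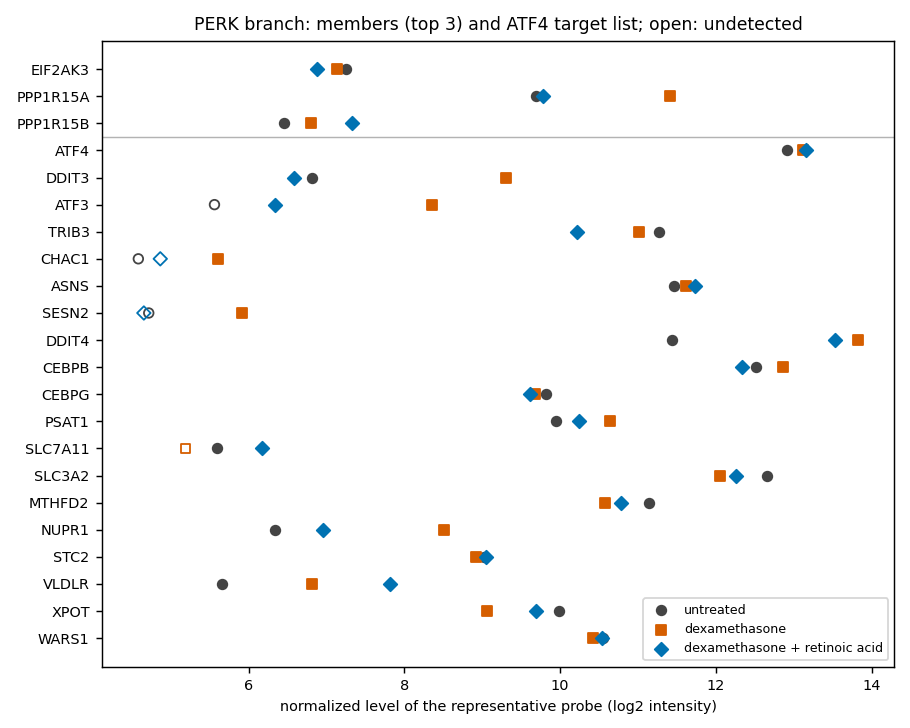
Normalized log2 intensity of EIF2AK3, PPP1R15A and PPP1R15B (top 3 lines) and of the 19 named genes of the ATF4 list on the untreated (grey circles), dexamethasone (orange squares) and combination (blue diamonds) arrays; open symbols mark undetected values. PPP1R15A, DDIT3, ATF3 and NUPR1 are highest on the dexamethasone array, and DDIT4 is high on both treated arrays.

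Further lists of the secretory pathway were followed in the same way. Of 22 measured genes of ER folding outside the main list, 1 was at least 2-fold higher with the combination than untreated, the HSP70 relative HSPA13 (2.71-fold), and 1 lower, AGR2 (median 0.05). Of all genes 5.84% were higher and 5.43% lower by that measure. AGR2, a disulfide isomerase family member of mucous and breast epithelium, had raw intensities of 470.4, 212.4 and 216.6, and was lower than untreated by 5.70-fold with dexamethasone and 6.97-fold with the combination. Between the treated arrays HSPA13 (2.04-fold) and UGGT1 (2.13-fold), which tags misfolded glycoproteins for another round of folding, were higher with the combination (2.99% of all genes). Of 18 further ERAD genes measured, EDEM3 was the 1 at least 2-fold higher with the combination than untreated (2.23-fold, 5.84% of all genes). AUP1 was the 1 at least 2-fold higher than with dexamethasone (2.06-fold, 2.99% of all genes). In every comparison 0 were at least 2-fold lower, against 3.58% to 5.43% of all genes.

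Of 19 measured genes of the translocon, signal peptidase and oligosaccharyltransferase and of 20 genes of ER-to-Golgi traffic, 0 passed 2-fold in any comparison. Of all genes, 2.99% to 5.84% were higher by that measure and 3.58% to 5.43% lower. The list medians lay between -0.10 and 0.07. At 1.5-fold with the combination against untreated, 3 of the 19 were higher and 1 lower. Of the 20, 5 were higher and 2 lower (15.5% and 16.1% of all genes). Of 12 measured sensor-processing genes and related factors, CREB3L4, a transcription factor activated like ATF6, was the 1 past 2-fold. It was 2.49-fold lower with the combination than untreated and 2.12-fold lower than with dexamethasone (5.43% and 3.58% of all genes). ATF6B fell just short of 2-fold. It was higher with dexamethasone than untreated by 0.9996 on the log2 scale (bead SE 0.16). With the combination it was 1.84-fold lower than with dexamethasone. MBTPS1, the protease that cuts ATF6, differed from untreated by 0.32 with dexamethasone and by 0.07 with the combination.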

How the data were processed

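Total RNA of 3 HCC1937 samples, 1 per group, was hybridized as biotinylated cRNA to Illumina bead arrays of 47315 probes, per the labels' protocols. Deposited mean bead intensities are unscaled and not background-subtracted, and the deposited table gives each probe's count of beads (median 21 to 22), standard error over beads in intensity units and detection p-value, per the file headers. The deposited second table holds linear intensity that appears quantile normalized, as inferred from its equal quantiles. The software that made either table is not given in the sources used here.

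In limma 3.58.1 (R 4.3.3) the negative controls were inferred from detection p-values, normexp correction was applied with offset 16, followed by quantile normalization between arrays and log2. Differences and figures used Python 3.11.15, numpy 2.4.6, pandas 2.3.3 and matplotlib 3.10.9. Genes were named from the platform annotation, which can be old, and 30070 of its 30117 probes matched RefSeq identifiers of GRCh38.p14. The brightest probe on average stood for a gene. A gene was measured where that probe passed detection (p under 0.01) on either array compared. For an undetected side the bound was the higher of its own value and the lowest one detected on that array, which makes the fold "at least". Bead errors were carried to log2 differences. Genes were called by size, 2-fold, with 1.5-fold beside it, and no test was run.

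The members and lists were chosen with earlier results of these data known. All members could be named. From the other lists up to 4 genes past 2-fold per comparison were named. AGR2, ATF4, DDIT3, TRIB3, ATF3, ERO1A, MBTPS1 and ATF6B were allowed at any value. ASNS, PSAT1, SLC3A2, XPOT, CHAC1, SESN2, SLC7A11, KDELR1, the heat shock genes, FICD, NUCB1, SERP1, NAV2 and RAD9A were chosen for naming with their values known. So were the SEC24 and SAR1 genes of the closing section. The steps were checked on simulated arrays and on planted promoter elements. Protein sequences were not used here.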

Additional observations from a re-analysis of the deposited data

How the results depend on the processing

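No paired analysis was possible because each group holds 1 array. A value was taken as moved where it changed by more than 1.96 bead standard errors, and a count where it changed by more than 1.5 times. The alternatives were no background correction, offset 50, scaling to the 75th percentile, the deposited normalized values, no detection filter, detection on both arrays and the median over detected probes. Scaling to the 75th percentile of detected probes, and the medians by promoter element, were added after seeing the data. Of 718 recomputed member differences, 671 moved by less than that limit, 47 by more, and none past 2-fold changed sign. With dexamethasone against untreated, 2 members were at least 2-fold lower under scaling to the 75th percentile, XBP1 being added. With the combination against dexamethasone, the count at least 2-fold lower was 1 with the deposited values, and the count at least 2-fold higher was 0 by the median over detected probes and 0 with scaling to detected probes. The median of members with an ERSE or ERSE-II with the combination against untreated was -0.61 without the detection filter, -0.55 without background correction and -0.53 with the deposited values. The cause was not tested. Without background correction fewer genes passed 2-fold (306 higher and 177 lower with dexamethasone, 271 and 241 with the combination against untreated, 108 and 153 between the treated arrays), as with the deposited values (289 and 165, 257 and 221, 105 and 145). With offset 50, 325 were lower with dexamethasone against untreated and 198 higher with the combination against dexamethasone. Dim probes near the detection limit, such as those of SEL1L and DNAJC3, had bead errors up to 0.29, which limits what their differences show.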

Other observations

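The SEC24 and SAR1 genes of vesicle budding from the ER were looked at after their values were seen, because SEC24D was the highest of the 30 measured genes with the combination against untreated. SEC24A and SEC24B, which form a pair of close relatives, were higher with the combination than untreated by 0.77 and 0.98 on the log2 scale, whereas SEC24C, the closer relative of SEC24D, was lower (-0.62). SAR1B, the GTPase that starts budding, differed by 0.98 and its paralog SAR1A by 0.05. None of these other 5 reached 2-fold.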
